A study of Mus musculus with 4 samples.

Results

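Amino acid carriers of the Slc1, Slc3, Slc7 and Slc38 families were followed by RNA sequencing in mouse cDNT cells labelled Tbx21-KO or WT, which the series counts among double-negative T cells. The carriers were chosen by symbol from a list of 9, drawn up with their FPKM in these 4 libraries known, and 8 of them had a row in the authors' table of 24768 genes. Slc1a5 is not analysed here. The Tbx21-KO group had 2 libraries of cDNT cells labelled as Tbx21 knockouts, and the WT group had 2 libraries of wild-type cDNT cells. The design text speaks of a knockdown where the sample labels say knockout. No strain, age, agent or allele is named, the labels leave the "c" of cDNT unexplained, and none says that the 2 libraries of a group came from separate cultures or animals. P-values are thus measured against a spread that may be no more than technical. The series asks what T-bet, the transcription factor encoded by Tbx21, does in these cells.

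A resting T cell has little use for imported amino acids, while an activated one grows, divides and makes protein, and takes up much more of them. The main entry for large neutral amino acids such as leucine is a pair of proteins: Slc3a2, the heavy chain known as CD98, holds a light chain of the Slc7 family at the cell surface, and Slc7a5 (LAT1) is the light chain best known in activated T cells. Leucine that enters this way is read by sensor proteins that switch on the growth kinase complex mTORC1 at the lysosome. Slc38a1 and Slc38a2 bring in glutamine and other small neutral amino acids with sodium, Slc1a4 exchanges alanine, serine and cysteine, and Slc7a1 carries arginine and lysine.

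The table holds FPKM, which are scaled to gene length and library size. By the whole reads that low values imply, the length is that of all annotated exons of a gene. Among the carriers it runs from 3529 bases for Slc3a2 to 17236 bases for Slc38a1. Orders and shares between genes rest on this length, which may exceed that of the transcripts made. The ratio of the groups for a single gene does not rest on it. The values imply totals of 23340860 and 24031357 reads in the Tbx21-KO libraries and 24965480 and 24127779 in the WT libraries, which need not be the full depth. Tbx21 itself was at 2.29 and 2.41 FPKM in Tbx21-KO 1 and 2, against 13.2 and 11.7 FPKM in WT 1 and 2. Transcripts that mark other cell types differed between the groups. Bulk RNA does not show whether such cells were present or the cDNT cells made these transcripts. All 12 granulocyte markers had a row, none was at 0 in every library, and they summed to 10521 and 10829 FPKM in Tbx21-KO, against 6.50 and 8.72 FPKM in WT. Their most abundant member, S100a9, a calcium-binding protein of neutrophils, averaged 3962 FPKM in Tbx21-KO and 2.34 FPKM in WT. The 8 macrophage and monocyte markers with a row summed to 262.0 and 283.0 FPKM in Tbx21-KO and 15.6 and 18.6 FPKM in WT. Lyz2, their most abundant, averaged 207.0 FPKM in Tbx21-KO and 3.26 FPKM in WT. The 6 mast cell and basophil markers with a row summed to 379.8 and 387.4 FPKM in Tbx21-KO and 25.0 and 26.2 FPKM in WT. Prss34, a mast cell and basophil protease, averaged 203.6 FPKM in Tbx21-KO and 1.95 FPKM in WT. Of these 6, 5 were higher, and the receptor gene Kit, which made up most of the WT sum, was lower, at 11.0 and 11.2 FPKM in Tbx21-KO, against 18.0 and 17.2 FPKM in WT. The 18 T cell markers with a row, led by Thy1, summed to 1533 and 1565 FPKM in Tbx21-KO and 2145 and 2251 FPKM in WT. They did not move together. In the fit described below, 13 were called lower, 1 higher and 4 were not called. Their log2 differences ran from -1.41 for Cd28 to 0.53 for Cd5. The coreceptor genes Cd4 and Cd8b1 together stayed between 3.68 and 4.95 FPKM in all 4 libraries. The 4 B cell markers with a row were too low to be tested and summed to 1.62 and 1.38 FPKM in Tbx21-KO, against 0.523 and 0.460 FPKM in WT, most of it Cd79a. Fewer cells of a type and less RNA per cell cannot be told apart in bulk RNA. What part any other cells had in the carriers' values was not tested. For every carrier but Slc7a11, the difference is also given after division of every library by its T cell markers, called the T cell marker scaling. These markers include Ptprc, Lcp2 and Lat, and whether T cells alone made them was not tested. The scaling thus cannot be read as a removal of the RNA of other cells.

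The carriers were named with earlier results of this same comparison known, so their differences are a description and carry no p-value here. The same holds for their calls in the fit of all genes (limma on log2(FPKM + 1), Benjamini-Hochberg adjusted p under 0.05, 11013 genes with a mean of at least 1 FPKM). Of the 8 carriers, 7 passed that filter, all of them already above 1 FPKM in WT. In Tbx21-KO, 6 of the 7 were called lower, none higher and 1 was not called. Among all genes tested 23.0% were called lower and 30.1% higher. In all 7 carriers both Tbx21-KO libraries lay below both WT libraries, as they did in 35.3% of all genes tested, while in 43.7% both lay above. The median log2 difference of the 7 was -0.93, beside 0.04 over all genes tested. The summed FPKM of the 8 carriers was 252.2 and 245.4 in Tbx21-KO, against 555.1 and 540.3 in WT. Since Slc7a5 and Slc3a2 make up 57.1% and 57.9% of that sum in Tbx21-KO and 67.0% and 67.4% in WT, it is largely a sum of these. The other gene lists below were also chosen with earlier results known. Adjusted p-values are printed there for genes picked as the largest called changes of this same fit. They are small by that choice, and serve as a description and not as a separate test.

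**Figure D1:**
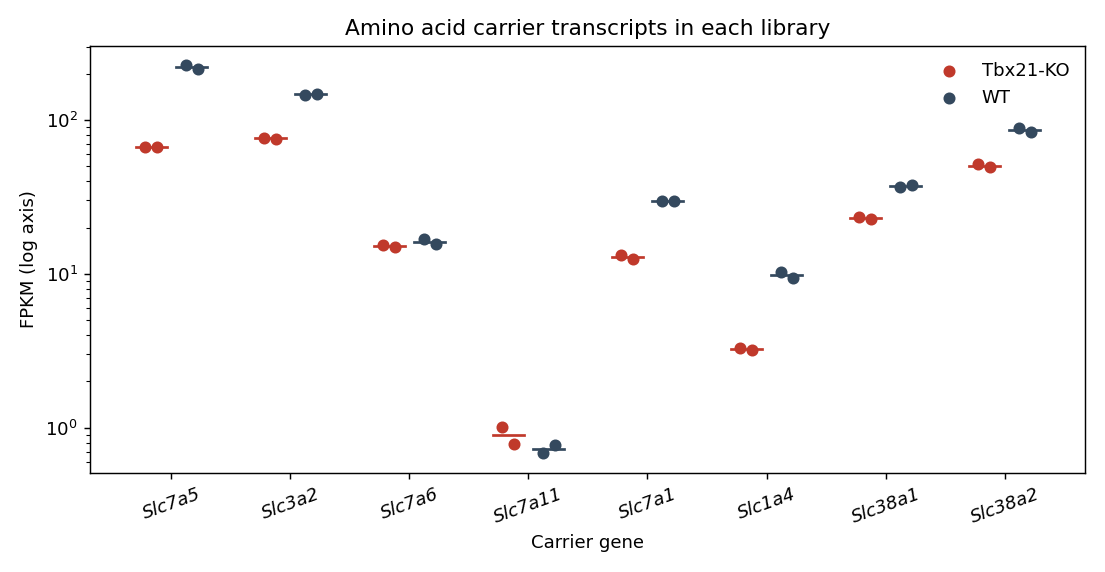
FPKM of the 8 carriers on a log axis, in the 2 Tbx21-KO libraries (red, left of each pair) and the 2 WT libraries (dark blue, right); each point is a library and each bar a group mean. Slc7a5 is at 66.3 to 67.1 FPKM in Tbx21-KO and 216.1 to 226.9 FPKM in WT, while Slc7a6 lies near 15 FPKM in both groups and Slc7a11 near 1 FPKM.

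Slc7a5 (ENSMUSG00000040010, protein-coding, GRCm38 chromosome 8, 121881150 to 121907694, minus strand; all gene positions below are of this build), the leucine-carrying light chain, was the most abundant of the 8 in WT and showed the largest difference. It stood at 67.1 and 66.3 FPKM in Tbx21-KO 1 and 2, against 226.9 and 216.1 FPKM in WT 1 and 2, and the Tbx21-KO mean was 30.1% of the WT mean. The groups lay far apart, and the 2 libraries of a group differed by little. The log2 difference was -1.72 (SE 0.04), and 37 of the 11013 tested genes were lower by more. Relative to the T cell markers it was -1.27 (SE 0.05). About 5811 and 5910 reads in Tbx21-KO and 21001 and 19334 in WT stand behind these values.

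Slc3a2 (ENSMUSG00000010095, chromosome 19, 8706882 to 8723369, minus strand), the heavy chain, was at 77.0 and 75.7 FPKM in Tbx21-KO, against 145.3 and 147.9 FPKM in WT. It kept 52.1% of its WT mean, again with no overlap between the groups. The log2 difference was -0.93 (SE 0.04), or -0.48 with the T cell marker scaling. The light chain was thus lower by a larger factor than its heavy chain. The ratio of Slc7a5 FPKM to Slc3a2 FPKM was 0.872 and 0.877 in the Tbx21-KO libraries, against 1.56 and 1.46 in WT. No scaling of the libraries can alter this ratio, but what part other cells had in it was not tested. The size of the ratio rests on the gene lengths used and is no count of transcripts. In both WT libraries the light chain had the higher FPKM of the pair, and in both Tbx21-KO libraries the heavy chain had.

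Slc7a6 (ENSMUSG00000031904, chromosome 8, 106168857 to 106198706, plus strand), another partner of Slc3a2 that exchanges cationic for neutral amino acids (y+LAT2), was the 1 tested carrier of the 7 that was not called. Its levels were 15.3 and 14.9 FPKM in Tbx21-KO, against 16.7 and 15.5 FPKM in WT. The lowest WT library lay just above the highest Tbx21-KO library, and the log2 difference was -0.09 with a 95% interval (limma) of -0.23 to 0.05, not called. Its sign rests on scaling, since the T cell marker scaling gave 0.34 and a call in the other direction. Without WT 1 it was -0.03 and without WT 2 -0.14. The ratio of Slc7a6 FPKM to Slc3a2 FPKM was 0.199 and 0.197 in Tbx21-KO, against 0.115 and 0.105 in WT.

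Slc7a11 (ENSMUSG00000027737, chromosome 3, 49892526 to 50443614, minus strand), the light chain of the cystine-glutamate exchanger xCT, was the rarest of the 8. It was at 1.00 and 0.783 FPKM in Tbx21-KO, against 0.682 and 0.774 FPKM in WT. With 326 and 262 reads in Tbx21-KO and 237 and 260 in WT, the lower Tbx21-KO library and the higher WT library were 2 reads apart before scaling by depth. Its mean lay under the filter, so it entered no test, and its log2 difference was 0.13, or 0.26 with a pseudocount of 0.1 in place of 1.

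The light chains of Slc3a2 were next summed, with Slc7a7 (y+LAT1) and Slc7a8 (LAT2) added from the other carriers of these families. The 5 summed to 91.9 and 90.0 FPKM in Tbx21-KO, against 245.2 and 232.9 FPKM in WT. Slc7a5 made up 73.1% and 73.7% of that sum in Tbx21-KO and 92.5% and 92.8% in WT, and Slc7a6 made up 16.7% and 16.6% in Tbx21-KO and 6.82% and 6.66% in WT. Slc7a8, which carries neutral amino acids of a wider range of sizes than Slc7a5, differed the other way from Slc7a5. It was at 7.17 and 7.05 FPKM in Tbx21-KO (838 and 848 reads), against 0.149 and 0.134 FPKM in WT (19 and 16 reads), and rose by 2.83 on the log2 scale (SE 0.08). That value depends on the pseudocount because WT was so low, and ran from 1.24 with a pseudocount of 5 to 5.61 with voom on recovered reads. Slc7a8 thus held 7.80% and 7.83% of the summed light chain FPKM in Tbx21-KO, against 0.0608% and 0.0573% in WT. It passed the filter only through the Tbx21-KO libraries. The summed granulocyte, macrophage and mast cell markers were also higher there. Which cells carried Slc7a8 was not tested.

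**Figure D2:**
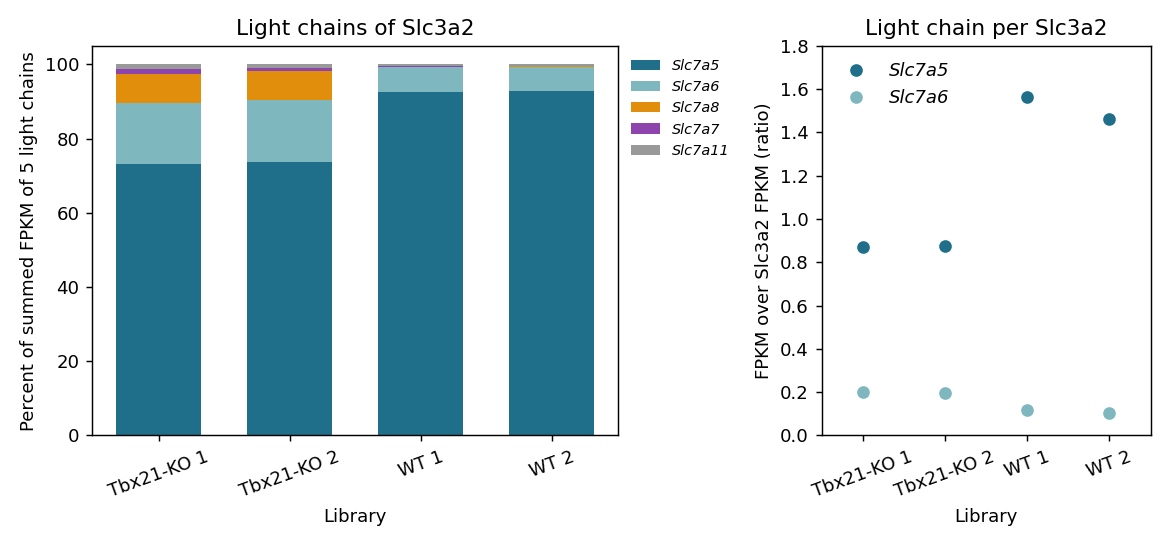
Left, share of each of 5 light chains in their summed FPKM, in percent, by library; right, FPKM of Slc7a5 and of Slc7a6 divided by the FPKM of Slc3a2 in the same library. Slc7a5 fills about 73% of the bar in both Tbx21-KO libraries and about 93% in both WT libraries, and its ratio to Slc3a2 is under 1 in Tbx21-KO and near 1.5 in WT.

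Slc7a1 (ENSMUSG00000041313, chromosome 5, 148327410 to 148399904, minus strand), the arginine and lysine carrier CAT1, was at 13.3 and 12.6 FPKM in Tbx21-KO, against 29.9 and 29.6 FPKM in WT. The Tbx21-KO mean was 43.4% of the WT mean and the groups were well apart, with a log2 difference of -1.14 (SE 0.05), or -0.71 with the T cell marker scaling. Its close relative Slc7a3 (CAT3), from the list of other carriers, was at 2.45 and 1.85 FPKM in Tbx21-KO, against 9.01 and 8.62 FPKM in WT, and fell by 1.65 on the log2 scale (SE 0.11, limma adjusted p = 0.00037), or by 0.95 with a pseudocount of 5. Slc7a2 (CAT2), an arginine carrier best known in activated macrophages, was at 1.05 and 1.12 FPKM in Tbx21-KO, against 0.267 and 0.367 FPKM in WT, and was too low to be tested. The 3 cationic carriers summed to 16.8 and 15.5 FPKM in Tbx21-KO and 39.2 and 38.6 FPKM in WT. Slc7a1 was 79.1% and 80.9% of that sum in Tbx21-KO and 76.3% and 76.7% in WT, so it was the most abundant of the 3 in all 4 libraries. Slc7a6, which also carries cationic amino acids, stood above it in both Tbx21-KO libraries and below it in both WT libraries.

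Slc1a4 (ENSMUSG00000020142, chromosome 11, 20302180 to 20332713, minus strand), the exchanger ASCT1 of alanine, serine and cysteine, was at 3.28 and 3.20 FPKM in Tbx21-KO, against 10.3 and 9.44 FPKM in WT. The Tbx21-KO mean was 32.9% of the WT mean, close to the share that Slc7a5 kept. Its log2 difference was -1.35 (SE 0.06), -0.97 with the T cell marker scaling and -0.85 with a pseudocount of 5. It rests on fewer reads than the other called carriers, 301 and 302 in Tbx21-KO and 1005 and 894 in WT.

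The sodium-coupled glutamine carriers had the smallest differences among the 6 that were called. Slc38a2 (SNAT2, ENSMUSG00000022462, chromosome 15, 96687392 to 96699730, minus strand) was at 51.6 and 49.2 FPKM in Tbx21-KO, against 88.5 and 83.4 FPKM in WT, a log2 difference of -0.76 (SE 0.05). Slc38a1 (SNAT1, ENSMUSG00000023169, chromosome 15, 96571418 to 96642913, minus strand), its neighbour on the chromosome, was at 23.6 and 22.7 FPKM in Tbx21-KO, against 36.9 and 37.6 FPKM in WT, a log2 difference of -0.66 (SE 0.04). Neither overlapped between the groups. These differences shrank to -0.31 and -0.23 with the T cell marker scaling and were still called. The 2 kept nearly the same proportion: Slc38a2 over Slc38a1 was 2.19 and 2.17 in Tbx21-KO and 2.40 and 2.22 in WT.

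**Figure D3:**
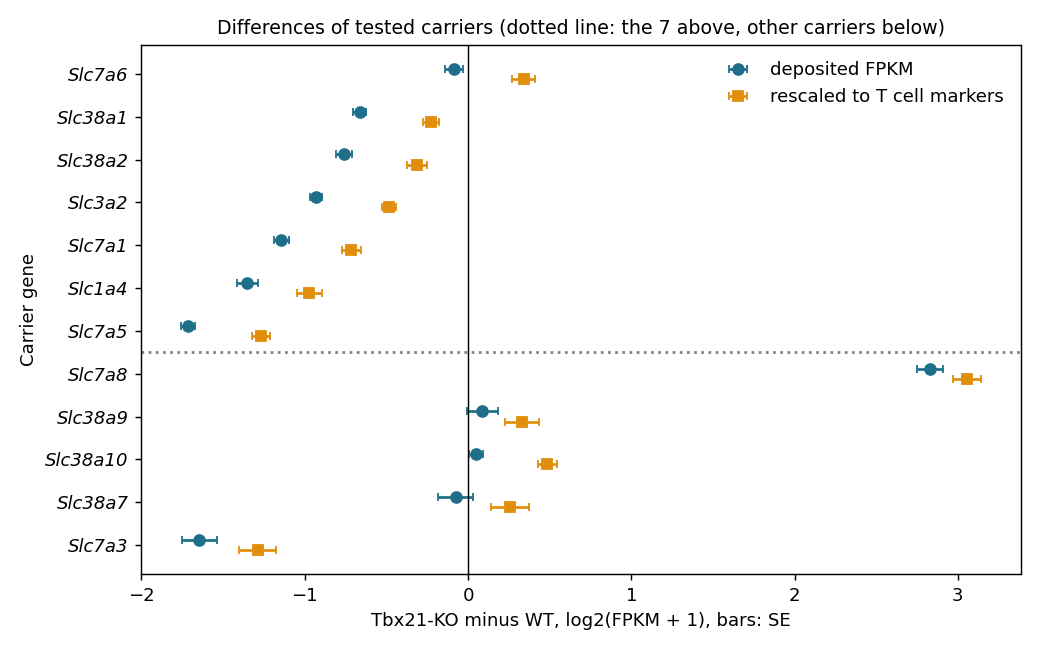
Log2(FPKM + 1) of Tbx21-KO minus that of WT for the 7 tested carriers (above the dotted line) and the 5 tested genes among the other carriers of the families (below it), with SE bars; circles are the deposited values and squares those with the T cell marker scaling. Of the 7, 6 lie left of 0 under both scalings, from -1.72 for Slc7a5 to -0.66 for Slc38a1 in the deposited values; Slc7a6 crosses 0, and Slc7a8 stands at 2.83.

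The T cell marker scaling moved the median of all genes tested by 0.40, so that only 4.87% of them were called lower and 71.8% higher. Under it the same 6 carriers were called lower and Slc7a6 higher. The markers themselves spread widely under this scaling, 7 called higher and 7 lower, with log2 differences from -0.98 for Cd28 to 0.91 for Cd5. Slc7a5, at -1.27, lay below all 18 of them, and the other 5 carriers, from -0.97 for Slc1a4 to -0.23 for Slc38a1, lay within their range. The order of the levels differed between the groups in 2 places. In Tbx21-KO it ran Slc3a2, Slc7a5, Slc38a2, Slc38a1, Slc7a6, Slc7a1, Slc1a4 and Slc7a11, whereas in WT Slc7a5 stood above Slc3a2 and Slc7a1 above Slc7a6. No 2 neighbours in either order overlapped in the libraries of their group, though the place of a gene rests on the length it was divided by.

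Promoter sequences of 6 of the 8 were found by symbol in the RefSeq table for GRCm38.p6, which gives 250 bases before and 50 after a start. Slc7a5 and Slc38a1 had none there. The last 120 bases before the start are shown for 4 carriers that were lower together in Tbx21-KO and for Slc7a11, which was not, to set their letters side by side. The stretch of Slc1a4 runs 4 bases past its start so that a match is whole. In all, 4 motifs were searched on both strands. The C/EBP-ATF element TGATGNAA is the kind of site that ATF4, a factor of the amino acid response, binds, and 3.97% of all 32851 promoter windows hold it. The antioxidant response element TGACNNNGC is bound by NRF2, and 12.4% of windows hold it. The T-box site TCACACC, a letter pattern of the family of T-bet, is in 3.98% of windows, and the E-box CACGTG, a site of MYC with its partner MAX, in 7.15%. None of these patterns contains another. Capitals mark every match, whichever motif or strand.
Slc7a11 (chr3:50443614-50443733, minus strand): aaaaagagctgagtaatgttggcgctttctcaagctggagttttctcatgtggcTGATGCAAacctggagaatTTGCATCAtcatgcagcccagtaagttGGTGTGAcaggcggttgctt
Slc1a4 (chr11:20332710-20332833, minus strand): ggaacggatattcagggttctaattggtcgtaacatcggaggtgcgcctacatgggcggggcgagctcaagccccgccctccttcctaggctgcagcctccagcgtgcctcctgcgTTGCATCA
Slc3a2 (chr19:8713898-8714017, minus strand): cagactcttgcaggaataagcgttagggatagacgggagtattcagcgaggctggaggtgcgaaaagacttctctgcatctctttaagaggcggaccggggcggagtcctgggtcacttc
Slc7a1 (chr5:148399905-148400024, minus strand): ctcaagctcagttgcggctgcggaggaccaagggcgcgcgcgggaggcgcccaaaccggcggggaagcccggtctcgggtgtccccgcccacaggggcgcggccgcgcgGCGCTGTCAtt
Slc38a2 (chr15:96699729-96699848, minus strand): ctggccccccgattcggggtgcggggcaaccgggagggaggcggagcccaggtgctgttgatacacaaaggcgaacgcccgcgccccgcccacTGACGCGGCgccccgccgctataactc

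Slc7a11 held the C/EBP-ATF letters at 66 bases before its start on the gene's strand and at 47 bases before it on the other strand, and a T-box site at 20 bases. Slc1a4 held the C/EBP-ATF letters across its start. Slc7a1 and Slc38a2 each held the antioxidant letters, at 11 and 27 bases before the start, and so did Slc7a6. Slc3a2 and the second window of Slc7a1 held none of the 4 patterns, and no window of these 6 genes held the E-box. The bases shown for Slc3a2, 8713898 to 8714017, lie inside the annotated gene, whose upstream end is at 8723369. Sequence before that upstream end was not searched. The 2 promoters with the C/EBP-ATF letters belong to a carrier that was lower in Tbx21-KO and to one that entered no test, and a match of letters is a description, not a bound site.

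By the root mean square difference of centred log2(FPKM + 1) values over the 4 libraries, the genes most like Slc3a2 among 11012 tested were Psat1, P2rx7 and Acoxl, at 0.015, 0.015 and 0.018. Psat1, an enzyme of serine synthesis, was at 51.7 and 50.7 FPKM in Tbx21-KO, against 96.9 and 97.0 FPKM in WT. P2rx7, a receptor for extracellular ATP, was at 3.32 and 3.14 FPKM in Tbx21-KO, against 7.04 and 7.09 FPKM in WT. Acoxl, an acyl-CoA oxidase-like gene, was at 0.593 and 0.576 FPKM in Tbx21-KO, against 1.94 and 2.10 FPKM in WT, and passed the filter only through WT. With 4 libraries such likeness is common: 148 genes lay within 0.1 of Slc3a2. Of the carriers, Slc38a2 was nearest, at place 141, then Slc7a1 at 170 and Slc38a1 at 259, and its partner Slc7a5 was at place 3022, since it was lower by more.

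The other carriers of the 4 families were mostly low or at 0 in these cells. Of 26 on the list 21 had a row, and only 5 passed the filter: Slc7a3 fell, Slc7a8 rose, and Slc38a10, Slc38a7 and Slc38a9 were not called. These last 3, picked with their values in view, had log2 differences of 0.05, -0.08 and 0.09. Slc38a10 was the most abundant, at 30.4 and 30.5 FPKM in Tbx21-KO, against 30.2 and 28.8 FPKM in WT. Slc38a9, a lysosomal arginine sensor, averaged 1.21 FPKM in Tbx21-KO and 1.08 FPKM in WT. The median of the 5 was 0.05, as over all genes tested (0.04).

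Genes that carry the amino acid signal to mTORC1 moved both ways. Of 35 tested, 7 rose, 5 fell and the other 23 had no call, and the median was 0.04, the same as over all genes. Among all genes tested 30.1% were called higher and 23.0% lower, both larger shares than in this list. Sesn2, a leucine sensor of the sestrin family, was at 18.5 and 17.1 FPKM in Tbx21-KO, against 34.4 and 37.1 FPKM in WT, and fell by 0.96 (SE 0.06, limma adjusted p = 0.000338). Lars, the leucyl-tRNA synthetase that has also been described as a leucine sensor, fell by 0.61 (SE 0.04). Castor1, the cytosolic arginine sensor, rose by 1.08 (SE 0.05, limma adjusted p = 0.000137), at 18.8 and 19.1 FPKM in Tbx21-KO, against 8.68 and 8.16 FPKM in WT. Lamtor2, part of the scaffold that holds the Rag GTPases at the lysosome, rose by 0.63 (SE 0.08), or 1.07 with the T cell marker scaling. Not called were the kinase gene Mtor and its partner Rptor, at 0.15 and -0.15, both picked with their values in view; the T cell marker scaling gave 0.54 and 0.20, both called higher. Scaled to the T cell markers, 28 of the 35 were higher and 3 lower, the 3 being Sesn2, Lars and Rheb, with Sesn2 at -0.53 and Lars at -0.17. That scaling called 71.8% of all genes tested higher and 4.87% lower.

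Enzymes that use amino acids also moved both ways. Of 37 tested, 15 fell, 12 rose and the other 10 had no call, with a median of -0.06. Over all genes tested, 23.0% were called lower and 30.1% higher. Bcat1, which starts the breakdown of leucine, isoleucine and valine in the cytosol, fell by 1.35 (SE 0.06, limma adjusted p = 0.000106), at 2.79 and 2.84 FPKM in Tbx21-KO, against 8.90 and 8.56 FPKM in WT. Shmt2, which turns serine into glycine in mitochondria, averaged 73.6 FPKM in Tbx21-KO and 162.8 FPKM in WT and fell by 1.13 (SE 0.04, limma adjusted p = 5.32e-05). Of the other genes of the serine path, picked with their values in view, Phgdh, Psat1 and Psph fell by 0.85, 0.91 and 0.62, and Asns, the asparagine synthetase, fell by 0.96. All of these were also called lower with the T cell marker scaling, but by less: Shmt2 at -0.69, Phgdh at -0.40, Psat1 at -0.46, Psph at -0.22 and Asns at -0.51. Shmt1, however, was not called at -0.14, and with that scaling was called higher at 0.27. Mthfd1 and Mthfd2 fell by 0.57 and 0.50, calls that the scaling ended at -0.14 and -0.06. Mthfd1l fell by 0.63 and was still called at -0.19. Bcat1 was at -0.98 with that scaling and at -0.81 with a pseudocount of 5. By the values at a pseudocount of 1, the 2 largest rises were Arg1, arginase 1, by 2.26 (SE 0.10), and Nos2, inducible nitric oxide synthase, by 1.41 (SE 0.11). Arg1 averaged 5.99 FPKM in Tbx21-KO and 0.458 FPKM in WT, and Nos2 3.23 FPKM in Tbx21-KO and 0.587 FPKM in WT. The size depends on the pseudocount: Arg1 ran from 1.01 with a pseudocount of 5 to 3.69 with voom, and Nos2 from 0.56 to 2.45. Ass1, argininosuccinate synthase, picked with its values in view, was level with Nos2 at 1.41 (SE 0.04), and above it with the T cell marker scaling, at 1.85 against 1.67. It was at 63.7 and 63.5 FPKM in Tbx21-KO, against 23.4 and 23.3 FPKM in WT. Arg1 and Nos2 both use arginine, both are abundant in activated macrophages, and both passed the filter only through the Tbx21-KO libraries. The summed macrophage markers were also higher there, mostly through Lyz2, while Csf1r and Adgre1 averaged only 1.78 and 2.70 FPKM in Tbx21-KO. What part any macrophages had in Arg1 and Nos2 was not tested. Under the T cell marker scaling 8 enzymes were lower and 23 higher, beside 4.87% lower and 71.8% higher of all genes tested.

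Of 20 tested genes on the path that uses cystine to make and recycle glutathione, 7 fell, 4 rose and the other 9 had no call, with a median of -0.0027. The shares over all genes tested were 23.0% lower and 30.1% higher. Gpx8 fell by 0.98 (SE 0.16), at 0.252 and 0.613 FPKM in Tbx21-KO, against 1.69 and 1.91 FPKM in WT, and passed the filter only through the WT libraries. Its size depends on the pseudocount, since 6 and 15 reads in Tbx21-KO and 44 and 48 in WT stand behind it, and ran from -0.32 with a pseudocount of 5 to -2.15 with voom on recovered reads. Chac1, which degrades glutathione, fell by 0.77 (SE 0.14), or by 0.39 with the T cell marker scaling, a call lost without Tbx21-KO 2. Without that library the list held 4 falls in place of 7. Gpx1, the main cytosolic glutathione peroxidase, was at 214.4 and 214.7 FPKM in Tbx21-KO, against 39.5 and 46.6 FPKM in WT, and rose by 2.30 (SE 0.08, limma adjusted p = 6.91e-05). Gsr, which recycles glutathione, rose by 0.90 (SE 0.04). Scaled to the T cell markers, 4 genes of this path were lower and 14 higher, beside 4.87% lower and 71.8% higher of all genes tested.

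Among 23 genes of stress, growth and redox regulators that bear on carrier genes or on their control, 12 rose, 5 fell and the other 6 had no call, with a median of 0.24. Over all genes tested, 30.1% were called higher and 23.0% lower. Trib3, a target and inhibitor of ATF4, was at 13.5 and 14.4 FPKM in Tbx21-KO, against 40.2 and 39.6 FPKM in WT, and fell by 1.46 (SE 0.05, limma adjusted p = 5.32e-05). Max, the partner of MYC, fell by 0.61 (SE 0.05), or by 0.17 with the T cell marker scaling. Hif1a, the hypoxia factor, averaged 141.7 FPKM in Tbx21-KO and 63.7 FPKM in WT and rose by 1.14 (SE 0.05, limma adjusted p = 0.000103), and Ddit4, an inhibitor of mTORC1, rose by 1.06 (SE 0.06). Atf4 and Myc, picked with their values in view, moved apart in the deposited values. Atf4 fell by 0.40, a call that the T cell marker scaling ended at 0.05. Myc was at 65.7 and 65.4 FPKM in Tbx21-KO, against 55.0 and 55.6 FPKM in WT, and rose by 0.24, or by 0.69 with the T cell marker scaling. Scaled to the T cell markers, 3 regulators were lower and 18 higher, beside 4.87% lower and 71.8% higher of all genes tested.

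**Figure D4:**
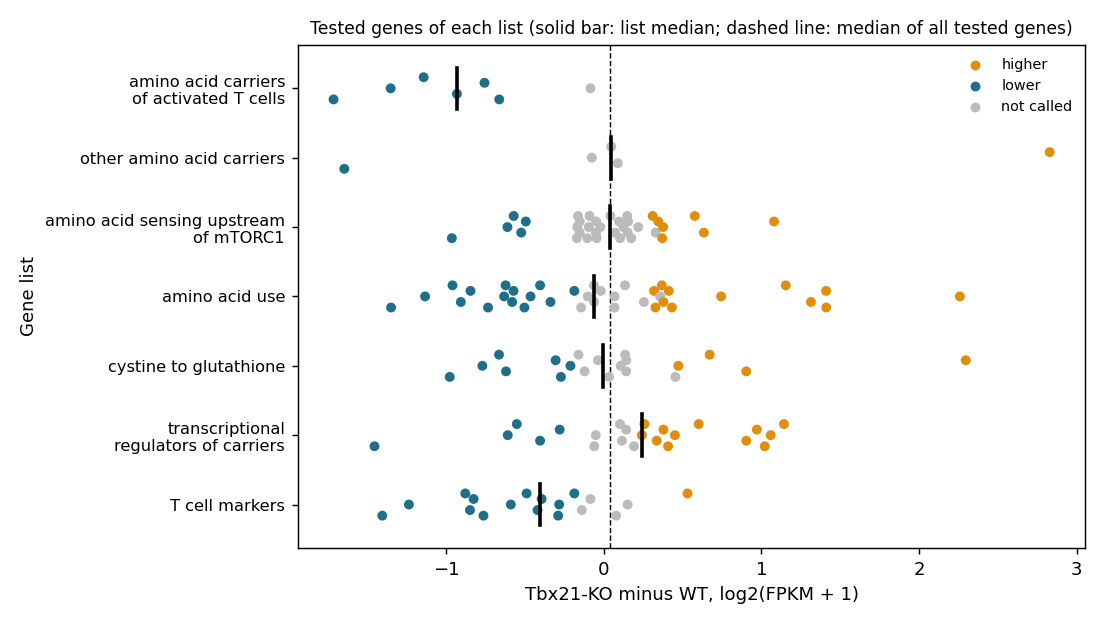
Log2(FPKM + 1) of Tbx21-KO minus that of WT for every tested gene of the carriers, the 5 related lists and the T cell markers; each point is a gene, coloured by its limma call, each solid bar is a list's median and the dashed line is the median of all tested genes, 0.04. The carriers' median is at -0.93, and those of the 5 related lists lie between -0.06 and 0.24.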

How the data were processed

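RNA of 4 libraries, 2 Tbx21-KO and 2 WT, was sequenced after a column extraction and an mRNA library kit, per the labels' protocols. The authors deposited 1 table of FPKM per gene and library. The submitters' processing notes name the builds GRCm38 and mm10; the aligner, counter, annotation and strand setting are not stated there. Of 24769 rows, the last is cut short within a value and was dropped. Gene IDs were matched to GENCODE M21 (GRCm38), 24720 of 24768, and none of the 8 carriers with a row shares annotated exon sequence with another gene.

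FPKM were tested as log2(FPKM + 1), with 1 as pseudocount, in the 11013 genes that averaged at least 1 FPKM, with limma 3.58.1 in R 4.3.3 (intensity trend, Benjamini-Hochberg, adjusted p under 0.05). Fold changes are on that log2 scale and come out too small for low genes. The smallest two-sided p of an exact permutation test of 2 libraries against 2 is 0.33, and none was used. With exon lengths, 96.8% to 97.3% of values under 20 reads came out whole within 0.1 read, which gave the library totals. The T cell marker scaling divides each library by the geometric mean of its T cell markers.

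The carriers, lists, tests and alternatives were chosen with earlier results of these data known. Named by rule are the 8 carriers, Tbx21, of each list the 2 largest rises and falls among called genes, the 3 genes most like Slc3a2, and of the granulocyte, macrophage, mast cell and T cell markers the most abundant in Tbx21-KO. Further genes were named outside this rule with their values known, among them Kit, Cd79a, Csf1r, Slc7a2, Rheb, Asns, Atf4 and Myc. The alternatives changed the pseudocount, filter, scaling, variance model, replicate block or the set of libraries.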

Additional observations from a re-analysis of the deposited data

How the results depend on the processing

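The 6 carriers called lower kept their direction and call in all 15 alternatives, with log2 differences from -1.76 to -1.27 for Slc7a5, -1.60 to -0.85 for Slc1a4, -1.20 to -0.71 for Slc7a1, -0.98 to -0.48 for Slc3a2, -0.80 to -0.31 for Slc38a2 and -0.71 to -0.23 for Slc38a1. Slc7a6 turned to 0.34 with the T cell marker scaling, which made the count of carriers called higher 1 in place of 0. Slc7a11 moved to 0.26 with a pseudocount of 0.1.

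The T cell marker scaling gave 7912 higher and 536 lower genes (93.7% of calls higher, against 56.7%), and after quantile normalization 3801 were lower (39.1% higher) with the median of all genes moved by -0.13. Other changes of over 1.5 times follow. At a mean FPKM of at least 5, 2018 genes were higher. Of the other carriers 3 were higher without a filter and also with the T cell marker scaling, 0 under a filter of 5 FPKM on the mean or of 1 FPKM on the WT mean, and 2 were lower after quantile normalization. Of the mTORC1 genes the T cell marker scaling made 28 higher and 3 lower, voom 12 higher and 8 lower, and 12 lower after quantile normalization. Of the enzymes 7 were higher at a mean FPKM of at least 5, and 23 higher and 8 lower with the T cell marker scaling. Of the glutathione genes 14 were higher and 4 lower with that scaling, and 4 to 7 were lower without 1 library. Of the regulators 3 were lower with that scaling. The cause was not tested.

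No label says that the replicate numbers pair the libraries, and the deviations of replicate 1 in Tbx21-KO and WT correlated across genes at r = -0.02. With the replicate number as a block, 3245 genes were higher and 2482 lower, and the same 6 carriers were called. Slc7a11, with 237 to 326 reads a library, was the only 1 of the 8 carriers too low to be tested.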
